A study of Homo sapiens and Mus musculus with 18 samples.

Results

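Long noncoding RNA genes of 9 symbols were looked up in RNA sequencing data of 2 irradiated lymphoma cell lines. They were the snoRNA host genes GAS5, SNHG1, SNHG5, SNHG6, SNHG8, SNHG12 and ZFAS1 and the nuclear RNAs MALAT1 and NEAT1. A gene was taken where its symbol in the table equalled one of these names, ignoring case. In the human line BL41, 6 of the 9 had a row among 15069 genes, namely GAS5, SNHG1, SNHG5, SNHG6, SNHG12 and ZFAS1. In the mouse line J3D, only Gas5 had a row among 12264 genes, so that 7 rows were measured in all. SNHG8, MALAT1 and NEAT1, 3 of the 9 symbols, had a row in neither table, and rows under older names of the members were not used here. The measured genes were thus all snoRNA hosts, and the nuclear-retained RNAs were not analysed here.

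BL41 is a human Burkitt lymphoma line, and the labels give the mouse line J3D the same tumour type. Each line, at passage 5 to 10, had 3 groups of 3 libraries, 18 in all. One group was sham-handled and kept at room temperature, one received 5 Gy of X-rays from a linear accelerator, and one received 5 Gy of protons. The protons were delivered by raster scanning in the centre of the spread-out Bragg peak at beam energies between 129.3 and 148.2 MeV/u. The linear energy transfer, the energy left per path length, had a median of 3.5 keV/µm and lay between 2.9 and 7.9 keV/µm. All groups had been resuspended 6 h before irradiation, and total RNA was purified 12 h after it. The design compares each beam with sham, and the beams with each other, within a line.

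Small nucleolar RNAs (snoRNAs) guide the chemical modification of ribosomal RNA, and in vertebrates most are cut out of the introns of a host gene. Many host genes begin with a 5′ terminal oligopyrimidine (5′TOP) tract, the start that also marks mRNAs of the translation machinery and ties their translation to growth signals. Because the spliced host RNA is usually translated only over short reading frames, nonsense-mediated decay degrades it, and GAS5 was named for its accumulation in growth-arrested mouse fibroblasts.

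The RefSeq annotation (GRCh38.p14) places 11 snoRNA genes inside GAS5, 9 inside SNHG1, 4 inside SNHG12, 3 inside ZFAS1, 2 inside SNHG5 and 1 inside SNHG6. These include SNORD44 and SNORD47 in GAS5, SNORD25 to SNORD31 in SNHG1, SNORA44 and SNORA61 in SNHG12, SNORD12 in ZFAS1, SNORD50A and SNORD50B in SNHG5, and SNORD87 in SNHG6. The number of these snoRNAs with a row of their own in the BL41 table was 0, and whether reads from snoRNAs inside a host were counted in its row is not known here. In GENCODE, GAS5 has up to 13 exons, SNHG1 up to 11, SNHG5 up to 9, SNHG12 and ZFAS1 up to 6 each and SNHG6 up to 4.

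The starts of 5 of the hosts are shown because 5′TOP starts are the sequence feature that this gene class is known for. The start of SNHG6, also measured in BL41, is not shown and is not among these 5. Each window of 90 bases runs from 40 bases before the RefSeq start to 50 bases from it, on the transcribed strand, and capitals mark the motifs described after the sequences. The windows lie at chr1:173868996-173869085 (minus strand) for GAS5, chr11:62855836-62855925 (minus strand) for SNHG1, chr6:85678684-85678773 (minus strand) for SNHG5, chr1:28581824-28581913 (minus strand) for SNHG12 and chr20:49278602-49278691 (plus strand) for ZFAS1, all in GRCh38.p14 and not in the build of the tables.
GAS5: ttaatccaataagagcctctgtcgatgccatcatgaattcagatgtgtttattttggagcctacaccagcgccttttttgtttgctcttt
SNHG1: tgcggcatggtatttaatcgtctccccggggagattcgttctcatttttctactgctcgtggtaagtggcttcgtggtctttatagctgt
SNHG5: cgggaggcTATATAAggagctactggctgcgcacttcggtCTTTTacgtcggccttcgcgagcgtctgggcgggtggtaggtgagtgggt
SNHG12: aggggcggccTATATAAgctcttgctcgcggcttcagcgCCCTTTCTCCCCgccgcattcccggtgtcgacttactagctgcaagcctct
ZFAS1: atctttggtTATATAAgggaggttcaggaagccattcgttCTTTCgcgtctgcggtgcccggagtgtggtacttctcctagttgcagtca

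A pyrimidine tract, searched as C followed by at least 4 bases that were each C or T and beginning within 10 bases of the start, stood in 3 of the 5 windows. It was CTTTT in SNHG5, CTTTC in ZFAS1 and CCCTTTCTCCCC in SNHG12. The same search matched 33.5% of 35116 RefSeq gene starts. The same 3 windows held TATATAA, the core of a TATA box, 32 bases before the start in SNHG5, 30 in SNHG12 and 31 in ZFAS1. This motif was searched after the sequences had been seen, on the transcribed strand and 20 to 40 bases before the start, where 0.598% of all starts held it. For GAS5 and SNHG1 the absence of either match says only that these letters are not at the RefSeq start.

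The values are logarithms, read as log2, that the authors had centred within each number in the library titles (1, 2 or 3). They therefore hold differences between libraries but no expression level, and a gene cannot be ranked above another. The depth of the libraries is unknown, and precision is given by the spread between the 3 libraries of a group. Nothing in the labels says that these came from separate cultures, so the p-values rest on a spread between libraries that may be technical. In J3D the libraries of number 1 stood apart, with an interquartile range over all genes of 0.342 to 0.395 against 0.139 to 0.238 in the other 6. Over all BL41 genes the median fold change stood at 0.09 after X-rays and 0.12 after protons on the log2 scale. Shifting each library by its trimmed mean brought these medians to −0.01 and 0.00. The shift changes every BL41 fold change, and so every list median below, by the same −0.10 after X-rays, −0.12 after protons and −0.01 between the beams (−0.0044, −0.037 and −0.032 in J3D). In the labels' terms both lines are B-cell tumours, and 14 of 14 B-cell markers had a row in BL41. In J3D the marker Cd22 was the 1 of 14 with a row, and Ms4a1, Cd79a, Cd79b and Pax5 were among those with none.

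GAS5 had its 3 lowest values in the proton libraries of both lines, but neither line's difference from sham passed the test. In BL41 its centred log2 values were 0.019, 0.12 and −0.0061 in the sham libraries, in the order of their numbers. They were 0.14, 0.067 and 0.13 after X-rays and −0.097, −0.12 and −0.060 after protons. The proton values lay below all 6 others, and sham and X-ray values overlapped. The group means were 0.043 ± 0.064 for sham, 0.11 ± 0.040 for X-rays and −0.093 ± 0.031 for protons (SD, n = 3 each). The spread within groups, a pooled SD of 0.0473, was among the smallest of the table, since 2.52% of BL41 genes had a smaller one and the median gene had 0.146.

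In limma, the log2 fold change of GAS5 in BL41 was −0.14 ± 0.074 (SE) for protons against sham, with a 95% interval of −0.303 to 0.0317 and an adjusted p of 0.261. It was 0.07 ± 0.074 for X-rays against sham (limma adjusted p = 0.618), a value that turned to −0.03 on the trimmed-mean scale. Protons against X-rays gave −0.21 ± 0.074, with an interval of −0.373 to −0.0382 that did not include 0. The limma p of this difference was 0.0213 before adjustment and 0.411 after adjustment over all genes. With the title number as a replicate block the interval was −0.440 to 0.0287, which included 0, and the unadjusted limma p was 0.0774. On the trimmed-mean scale the fold change for protons against sham was −0.25 ± 0.088, with a limma adjusted p of 0.145.

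**Figure D1:**
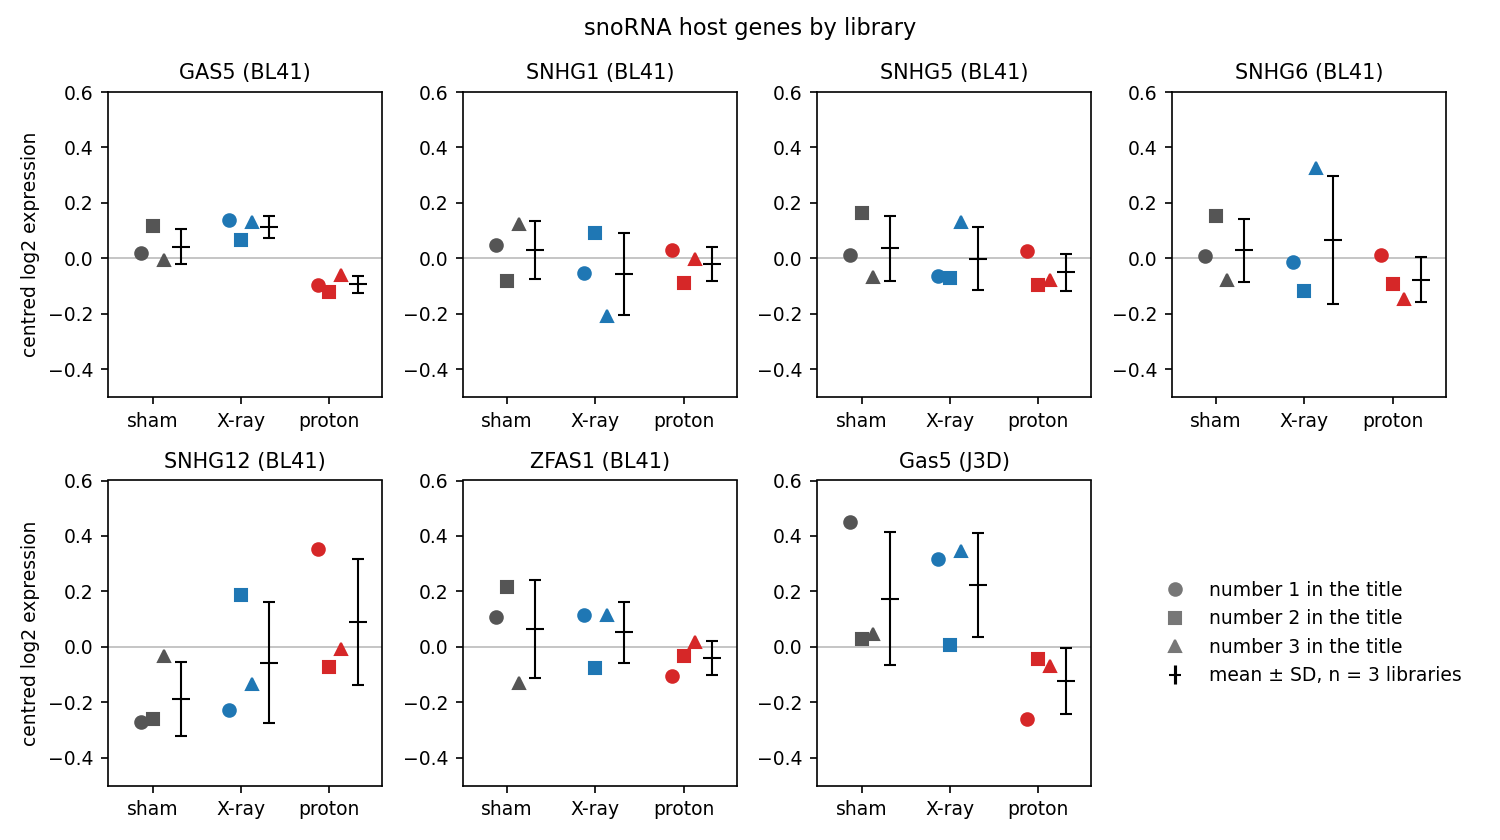
Centred log2 expression of the 6 measured hosts in BL41 and of Gas5 in J3D, with 1 point per library, the shape giving the number in the title, and bars giving the mean ± SD of 3 libraries. GAS5 has its 3 proton points below all other points in both lines, whereas in the other 5 BL41 genes the groups overlap.

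In J3D, Gas5 had values of 0.45, 0.027 and 0.046 in the sham libraries. Its values were 0.32, 0.0068 and 0.35 after X-rays and −0.26, −0.043 and −0.069 after protons. The proton values again lay below the other 6, by the least at number 2, and the widest contrast came from number 1. Means were 0.17 ± 0.24 for sham, 0.22 ± 0.19 for X-rays and −0.12 ± 0.12 for protons (SD, n = 3). The log2 fold change was −0.30 ± 0.19 for protons against sham (95% interval −0.718 to 0.120, limma adjusted p = 0.334). It was 0.05 ± 0.19 for X-rays against sham, with a limma adjusted p of 1, and −0.35 ± 0.19 for protons against X-rays, with a limma adjusted p of 0.392. Without the 3 libraries of number 1 the proton fold change was −0.09 ± 0.15 (limma adjusted p = 0.805). The tables of the lines were normalised separately, so the lines were not tested against each other.

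Genes whose 3 proton libraries lay below the 6 others made up 1.92% of the BL41 table and 3.39% of the J3D table. Of 8296 symbols standing once in each table, 7 (0.0844%) showed this order in both lines, namely CORO1B, GAS5, H1FX, MID1IP1, MXD3, TSTD1 and TSTD3. This order was chosen for description after the values had been seen and carries no test. The share that unrelated tables with these rates would show was not calculated, so 0.0844% does not say that the order is unusual. GAS5 had it in both lines also after shifting by trimmed means, where 3.19% of BL41 genes and 4.29% of J3D genes did. After quantile normalisation GAS5 again had it in both lines, with shares of 3.96% in BL41 and 4.86% in J3D.

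SNHG5, SNHG6 and ZFAS1, hosts of box C/D snoRNAs, the class that guides methylation, showed no separation of the groups in BL41. SNHG5 had 0.011, 0.17 and −0.066 in sham, −0.063, −0.070 and 0.13 after X-rays, and 0.027, −0.097 and −0.079 after protons. Its fold change was −0.04 ± 0.087 after X-rays and −0.09 ± 0.087 after protons (log2 ± SE), with limma adjusted p of 0.838 and 0.542. On the trimmed-mean scale it was −0.14 and −0.20. The highest sham value (number 2) and the highest X-ray value (number 3) both exceeded every proton value, and the groups overlapped.

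SNHG6 had 0.010, 0.15 and −0.076 in sham, −0.013, −0.12 and 0.32 after X-rays, and 0.012, −0.092 and −0.15 after protons. The X-ray library of number 3 was the highest of the 9, and the pooled SD of 0.156 was near that of the median gene. The log2 fold change was 0.04 ± 0.12 after X-rays, which turned to −0.07 on the trimmed-mean scale, and −0.10 ± 0.12 after protons, −0.22 on that scale (limma adjusted p = 0.891 and 0.590). ZFAS1, which lies antisense to the start of ZNFX1, had 0.11, 0.21 and −0.13 in sham, 0.11, −0.074 and 0.12 after X-rays, and −0.11, −0.032 and 0.019 after protons. The sham library of number 3 was its lowest and that of number 2 its highest, so the sham group alone spanned the other 6 values. Its log2 fold change was −0.01 ± 0.11 after X-rays and −0.10 ± 0.11 after protons (limma adjusted p = 0.968 and 0.557), and −0.11 and −0.22 on the trimmed-mean scale.

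SNHG1, the host first described as UHG, had 0.048, −0.083 and 0.12 in sham, −0.053, 0.091 and −0.21 after X-rays, and 0.029, −0.089 and −0.0028 after protons. The proton values lay within the sham range except that of number 2, just below it, and the X-ray libraries held both low and high values. Its log2 fold change was −0.09 ± 0.091 after X-rays and −0.05 ± 0.091 after protons, with limma adjusted p of 0.616 and 0.746. On the trimmed-mean scale it was −0.19 and −0.17. SNHG12, a host of both snoRNA classes, had −0.27, −0.26 and −0.034 in sham, −0.23, 0.19 and −0.13 after X-rays, and 0.35, −0.071 and −0.0073 after protons. The proton library of number 1 was the highest of the 9 and the sham libraries of numbers 1 and 2 the lowest, while sham number 3 overlapped the proton group. SNHG12 had the widest fold change of the 6, 0.28 ± 0.15 after protons (95% interval −0.0560 to 0.614, limma adjusted p = 0.249), and 0.13 ± 0.15 after X-rays (limma adjusted p = 0.648). On the trimmed-mean scale these values were 0.16 and 0.03, and leaving out single libraries took the X-ray value from 0.0075, without X-ray 2, to 0.216. Without the 3 libraries of number 1 the proton value was 0.11 ± 0.16 (limma adjusted p = 0.734).

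After X-rays, 0 of the 6 BL41 hosts passed the limma threshold (adjusted p of 0.05), where 5.35% of all genes did. After protons 0 of 6 passed, where 6.82% of all genes did. Between the beams 0 of 6 passed, as did 0.00% of all genes. In J3D, 0.00% of genes passed in each of the 3 comparisons, Gas5 among those that did not. At an unadjusted limma p under 0.05 there were 0 members after X-rays and 0 after protons in BL41, where 23.6% and 28.4% of genes stood, and 1 of 6 between the beams, GAS5, where 11.8% did. For J3D Gas5, which did not reach it, the shares of all genes were 6.24% after X-rays, 19.8% after protons and 11.9% between the beams. The BL41 counts against sham, and the shares beside them, are those of the unshifted scale. With trimmed means 1 of 6 hosts had an unadjusted limma p under 0.05 after X-rays and 1 of 6 after protons. With quantile normalisation these counts were 0 and 2, and with the block and trimmed means together 0 and 0. Whether the hosts differ from all genes in this was not tested. After protons 1 of 6 BL41 hosts, GAS5, lay lower without overlap against sham and against X-rays, where 6.52% and 9.12% of genes did. For J3D Gas5 the corresponding shares of all genes were 14.2% and 6.77%. These shares hold only the direction that GAS5 took, and counting both directions makes them larger. In J3D 24.4% of genes lay higher without overlap after protons against sham.

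The median fold change of the 6 hosts was 0.01 after X-rays and −0.09 after protons, against 0.09 and 0.12 over all genes. With the block, 0.00% of BL41 genes passed in either beam contrast. Between the beams the remaining 5 hosts had log2 fold changes of 0.15 ± 0.15 for SNHG12, 0.04 ± 0.091 for SNHG1, −0.05 ± 0.087 for SNHG5, −0.09 ± 0.11 for ZFAS1 and −0.14 ± 0.12 for SNHG6, with limma adjusted p from 0.625 to 0.885. In whole cultures, fewer cells of a kind and less RNA per cell cannot be told apart.

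**Figure D2:**
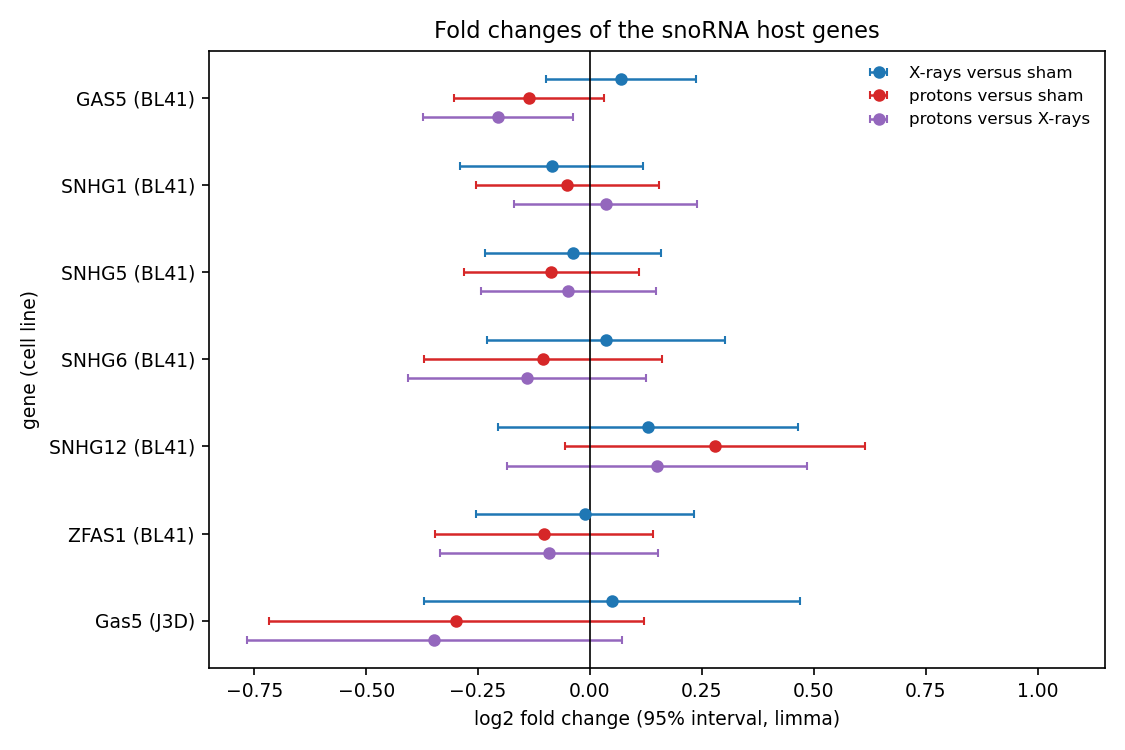
Log2 fold changes of each measured host with 95% limma intervals, for each beam against sham and protons against X-rays. The interval of GAS5 between the beams in BL41, −0.373 to −0.0382, is the 1 interval shown that leaves out 0, and its limma adjusted p is 0.411. With the replicate block, not drawn here, that interval is −0.440 to 0.0287 and includes 0.

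Across the 9 BL41 libraries, GAS5, SNHG5, SNHG6 and ZFAS1 varied together. Their 6 pairs had Pearson r from 0.50 to 0.894, the highest between SNHG5 and SNHG6, and from 0.766 to 0.930 on the trimmed-mean scale. SNHG1 and SNHG12 had r = 0.41 with each other. Their 8 pairs with the other hosts were all below 0, from −0.797 to −0.275, but 2 of the 8 were above 0 on the trimmed-mean scale. These values describe 9 libraries that share the centring within numbers and the group differences, so they carry no p. The division of the hosts follows the same r values, so the signs within and between its parts are no separate support for it. SNHG12 and ZFAS1 formed the most opposed pair (r = −0.797). The starts of both hold a pyrimidine tract and TATATAA, and a link between start and profile was not tested.

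**Figure D3:**
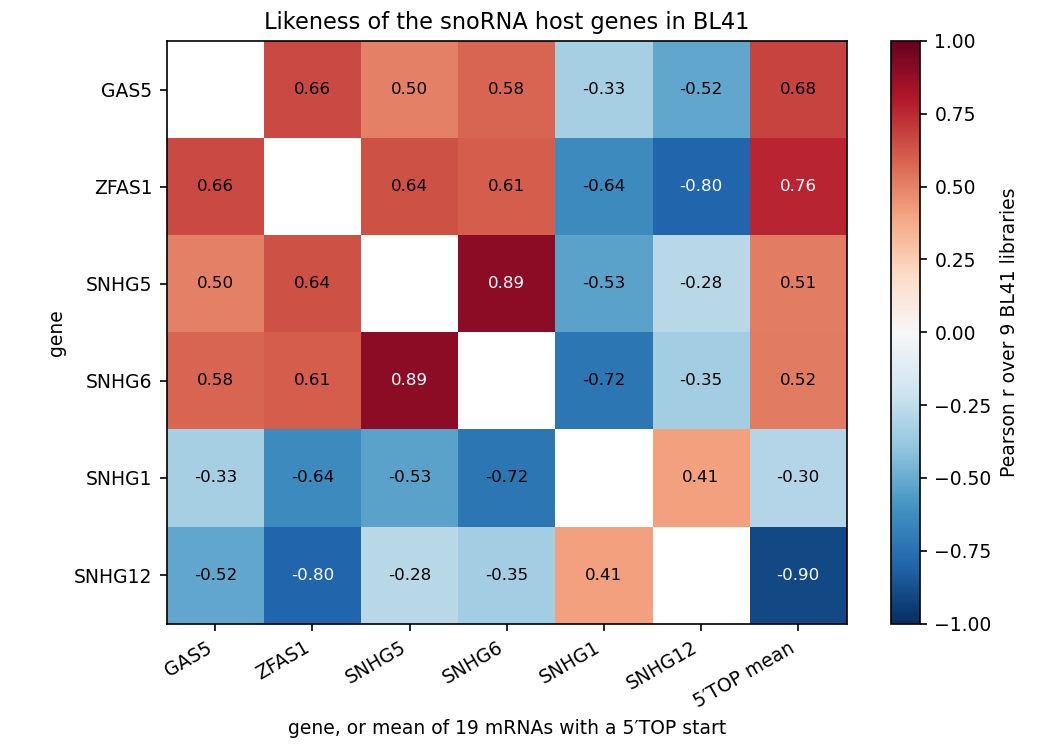
Pearson r over the 9 BL41 libraries between each pair of hosts and, in the last column, with the mean of 19 5′TOP mRNAs. GAS5, ZFAS1, SNHG5 and SNHG6 form a block of positive r, while SNHG1 and SNHG12 are negative with that block and with the 5′TOP mean.

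The 5′TOP mRNAs other than ribosomal proteins, translation factors and related genes such as EEF2, NPM1, TPT1 and PABPC1, gave a reference for this start class. In BL41 the mean of 19 such genes was 0.045 to 0.11 in sham, −0.057 to 0.055 after X-rays and −0.094 to −0.031 after protons. The proton means lay below all sham means and overlapped the X-ray group through X-ray number 2. Their r with this mean was 0.76 for ZFAS1, 0.68 for GAS5, 0.52 for SNHG6 and 0.51 for SNHG5. SNHG12 had −0.90, which was −0.62 on the trimmed-mean scale, and SNHG1 had −0.30, which turned to 0.32. In J3D the mean was 0.057 to 0.15 in sham, −0.054 to 0.13 after X-rays and −0.11 to 0.0004 after protons, and its r with Gas5 was 0.85. The highest J3D means of sham (0.149) and X-rays (0.126) and the lowest of protons (−0.108) were all at number 1. These wide libraries enter the r of 0.85, which was not calculated without them. Of all genes, 4.67% in BL41 and 8.64% in J3D had an r with the mean at least as high as GAS5.

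In limma, 0 of the 19 5′TOP genes passed in either line. At an unadjusted p under 0.05 there were 3 after X-rays and 6 after protons in BL41, and 0 and 3 in J3D. After protons 2 of 19 in BL41 and 4 of 19 in J3D had a fold change above 0, with medians of −0.14 and −0.12 against 0.12 and 0.05 over all genes. After X-rays the medians were −0.06 and −0.07. The smallest p in BL41 belonged after protons to NACA, a ribosome-associated chaperone subunit, with −0.25 ± 0.068 (limma adjusted p = 0.0590). On the trimmed-mean scale NACA had −0.36, with a limma adjusted p of 0.0459 without the block and 0.236 with it. After X-rays the nucleolar protein NPM1 had the smallest p, with −0.21 ± 0.061 (limma adjusted p = 0.0846). In J3D the elongation factor Eef2 had −0.58 ± 0.20 after protons (limma adjusted p = 0.247), and −0.36 without number 1.

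**Figure D4:**
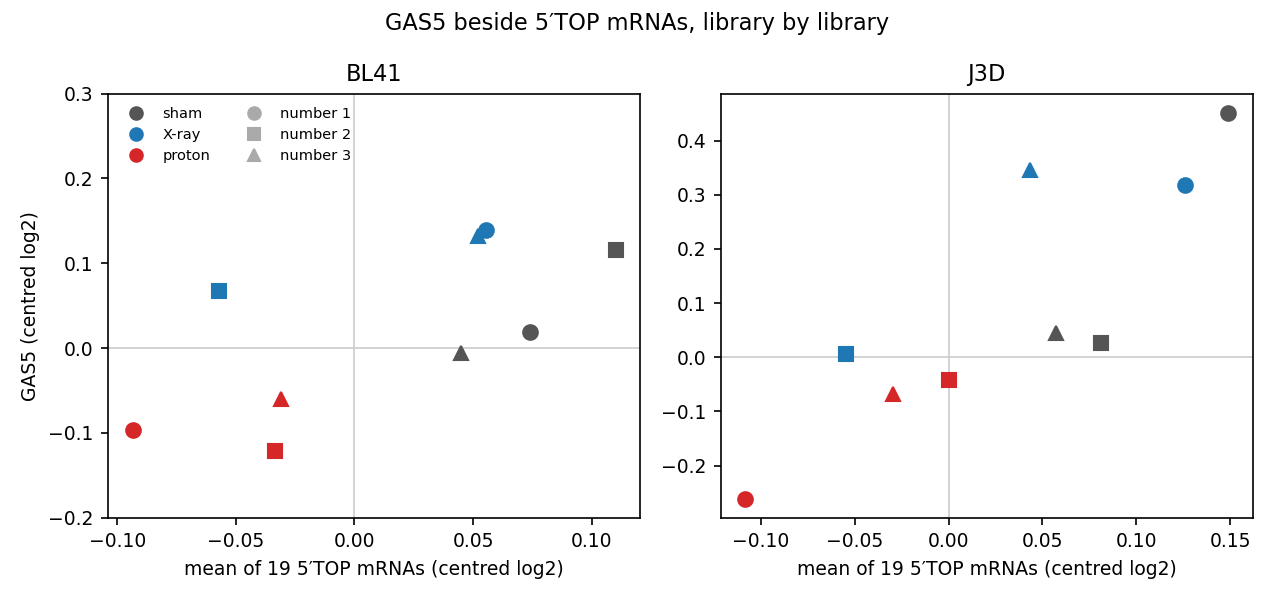
GAS5 against the mean of 19 5′TOP mRNAs in each library of BL41 (left) and J3D (right), both as centred log2 values, with colour for the group and shape for the title number. The proton libraries lie lowest on the GAS5 axis in both lines, and r is 0.68 in BL41 and 0.85 in J3D. The J3D value includes the wide libraries of number 1 and was not calculated without them.

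The genes whose 9 values were most like those of GAS5 were, in BL41, YPEL5 (r = 0.946), DNASE2 (r = 0.943) and BLVRB (r = 0.940). In J3D they were Eid2b (r = 0.985), Prcp (r = 0.982) and Fnbp1l (r = 0.979). An r over 0.9 with GAS5 was rare in BL41, at 0.0664% of genes, and reached by 2.36% of genes in J3D. The 3 wide libraries of number 1 enter the J3D values.

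Among 16 other snoRNA hosts looked for, 9 were measured in BL41, and SNHG10, host of the Cajal body RNA SCARNA13, fell with both beams. SNHG10 had 0.47, 0.26 and 0.31 in sham, −0.18, −0.20 and −0.18 after X-rays, and −0.20, −0.22 and −0.088 after protons. All 6 irradiated libraries lay below the 3 sham libraries, an order shown by 2.46% of BL41 genes, and the beams overlapped. The log2 fold change was −0.53 ± 0.076 after X-rays and −0.52 ± 0.076 after protons, with limma adjusted p of 0.0155 and 0.0167. With the block the limma adjusted p were 0.0992 and 0.131. The X-ray call was also lost without sham 1, sham 3 or X-ray 1, and the proton call without sham 1 or any 1 of the proton libraries. SNHG10 overlaps the protein-coding gene GLRX5 on the opposite strand, whose own fold changes were −0.06 ± 0.071 and −0.02 ± 0.071.

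With each beam 1 of the 9 other hosts of BL41 passed, where 5.35% of all genes did after X-rays and 6.82% after protons. The remaining 8 did not pass. They included SNHG16 with 0.31 ± 0.12 after protons (limma adjusted p = 0.128), SNHG20 with 0.31 ± 0.17, SNHG17 with −0.10 ± 0.10 and DANCR with 0.02 ± 0.085. The medians of the 9 were −0.02 after X-rays and 0.02 after protons, on a scale where all genes had 0.09 and 0.12. In J3D, 0 of 4 passed in limma, with 0 after X-rays and 2 after protons at an unadjusted p under 0.05. Snhg3 had −0.77, −0.36 and −0.17 in sham and 0.87, 0.13 and 0.087 after protons, above sham without overlap as in 24.4% of J3D genes, and −0.75, 0.27 and −0.12 after X-rays. Its proton fold change was 0.80 ± 0.29 (limma adjusted p = 0.247), and 0.37 without number 1, which held its extremes in all 3 groups. Dancr had 0.63 ± 0.26 after protons (limma adjusted p = 0.247), and Snhg9 had −0.30 ± 0.18 after X-rays (limma adjusted p = 0.890). Of the 4, 3 had a proton fold change above 0 and Gas5 one below, and the r of Gas5 with the mean of the 4 was −0.90. This r, and the J3D r with list means given below, include the 3 wide libraries of number 1. They were not calculated without these libraries, and the share of all genes with such an r was not calculated either.

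**Figure D5:**
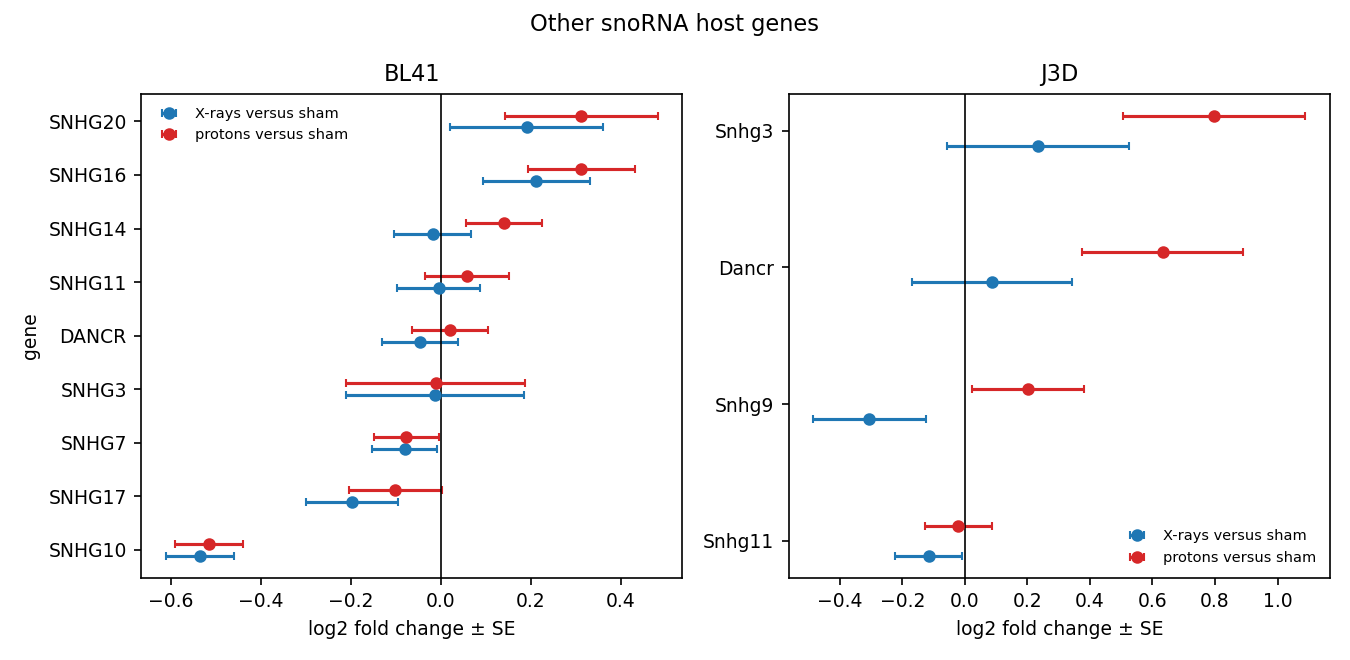
Log2 fold changes ± SE of the other snoRNA hosts after X-rays and after protons, in BL41 (left) and J3D (right). SNHG10 lies at −0.53 and −0.52 in BL41, and Snhg3 at 0.80 and Dancr at 0.63 after protons in J3D are the widest values of that line.

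The proteins that build the snoRNA particles on the host introns were measured with 21 genes in each line, of which 0 passed. At an unadjusted limma p under 0.05 there were 2 after X-rays and 5 after protons in BL41, and 2 and 8 in J3D. The list comprises the box C/D core (FBL, NOP56, NOP58), the box H/ACA core (DKC1, NHP2, GAR1) and assembly factors. Their median was −0.04 after X-rays and 0.10 after protons in BL41, and −0.03 and 0.29 in J3D, where all genes had 0.00 and 0.05. The smallest p belonged in BL41 to DKC1, the pseudouridine synthase, after X-rays (−0.29 ± 0.092, limma adjusted p = 0.103) and to its assembly chaperone SHQ1 after protons (0.36 ± 0.13, limma adjusted p = 0.115). In J3D it belonged to the assembly factors Pih1d1 after X-rays (−0.26 ± 0.087, limma adjusted p = 0.622) and Znhit3 after protons (0.33 ± 0.11, limma adjusted p = 0.247). The r of Gas5 with the mean of this list in J3D was −0.92, whereas in BL41 it was −0.64 and turned to 0.13 on the trimmed-mean scale.

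Nonsense-mediated decay factors, which degrade spliced host RNAs, were all measured in both lines, and 0 of 17 passed in each. At an unadjusted limma p under 0.05 there were 2 after X-rays and 8 after protons in BL41, and 0 and 3 in J3D. Medians were 0.04 after X-rays and 0.17 after protons in BL41, and −0.07 and 0.17 in J3D. NBAS, which acts in decay at the endoplasmic reticulum, had the smallest p in BL41 with both beams, with 0.38 ± 0.12 and 0.41 ± 0.12 (limma adjusted p = 0.0978 and 0.0716). Smg9, a regulator of the kinase that phosphorylates UPF1, had the smallest p in J3D, with −0.23 ± 0.11 and −0.35 ± 0.11 (limma adjusted p = 0.816 and 0.247). In BL41 the r of the hosts with the mean of the decay factors was −0.86 for ZFAS1, −0.80 for GAS5, −0.65 for SNHG5 and −0.60 for SNHG6, but 0.42 for SNHG1 and 0.81 for SNHG12. The signs were the same on the trimmed-mean scale. They were not particular to the decay factors. In BL41 the nuclear speckle proteins and the 3′ end enzymes, described below, gave every host the same sign on both scales. With these lists ZFAS1 had −0.78 and −0.82, GAS5 −0.70 and −0.75, and SNHG12 0.56 and 0.93. In J3D the r of Gas5 was −0.82, within the range of −0.92 to −0.75 that it had with 5 other lists.

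Proteins of the bodies that NEAT1 and MALAT1 occupy were measured although the RNAs themselves were not. NEAT1 is the scaffold of paraspeckles, and 21 rows of paraspeckle proteins were tested in BL41 and 20 in J3D. RBMX, an RNA-binding protein of the hnRNP G family, fell after X-rays in BL41 (−0.36 ± 0.086, limma adjusted p = 0.0456, 0.185 with the block). DAZAP1, a splicing regulator, fell after protons (−0.32 ± 0.069, limma adjusted p = 0.0350, 0.171 with the block). MALAT1 gathers in nuclear speckles, and of 21 speckle proteins in BL41 the splicing factor SRSF7 fell with both beams. SRSF7 had 0.34, 0.20 and 0.30 in sham, −0.31, 0.0085 and −0.27 after X-rays, and −0.074, −0.081 and −0.081 after protons. Its fold change was −0.47 ± 0.092 after X-rays (limma adjusted p = 0.0267, 0.133 with the block) and −0.36 ± 0.092 after protons (limma adjusted p = 0.0496, 0.175 with the block). In each of these lists 1 of 21 rows passed with each beam, near the shares of all BL41 genes, 5.35% after X-rays and 6.82% after protons.

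These calls depended on single libraries. Of the 9 libraries left out in turn, 8 ended the call of RBMX, 8 each call of SRSF7 and 6 that of DAZAP1, with limma adjusted p up to 0.161. RBMX held without sham 1, SRSF7 without X-ray 2 in both contrasts, and DAZAP1 without sham 1, X-ray 2 or X-ray 3. List medians in BL41 were −0.10 after X-rays and −0.05 after protons for the paraspeckle proteins and −0.06 and 0.05 for the speckle proteins. In J3D, 0 of 20 and 0 of 21 passed in limma, with 0 and 1 after X-rays and 2 and 0 after protons at an unadjusted p under 0.05. The medians there were −0.06 and 0.17 for paraspeckle and −0.11 and 0.15 for speckle proteins. The genes of smallest p there were Cpsf6 (0.24 ± 0.15) and Srsf5 (−0.33 ± 0.15) after X-rays and Srsf10 (0.32 ± 0.13) and Srsf6 (0.69 ± 0.34) after protons, with limma adjusted p from 0.247 to 0.897. Without number 1 these were 0.41, −0.43, 0.19 and 0.14, and leaving out single libraries gave 0.072 to 0.412 for Cpsf6 and 0.414 to 0.838 for Srsf6.

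The enzymes that cut and degrade the 3′ ends of MALAT1 and NEAT1, RNase P subunits, ELAC2 and the nuclear exosome, gave 0 of 18 calls in each line, and at an unadjusted limma p under 0.05 there was 1 after X-rays and 6 after protons in each line. Their medians were 0.04 after X-rays and 0.25 after protons in BL41, and −0.02 and 0.32 in J3D. In BL41 the RNase P subunits POP7 (−0.21 ± 0.087 after X-rays) and POP4 (0.27 ± 0.083 after protons) had the smallest p, with limma adjusted p of 0.183 and 0.0759. In J3D the subunit Rpp25 had −0.84, −0.70 and −0.48 in sham, 0.19, 0.58 and −0.011 after X-rays, and 0.094, 0.081 and 0.049 after protons. All irradiated libraries lay above sham, an order shown by 2.20% of J3D genes, by 0.92 ± 0.20 and 0.75 ± 0.20, but the limma adjusted p were 0.508 and 0.247. SNHG12 had r = 0.93 with the mean of this list in BL41, and Gas5 had −0.92 in J3D.

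Among other long noncoding RNAs, 9 of 20 listed symbols were measured in BL41 and 1, Tug1, in J3D, and 0 passed. At an unadjusted limma p under 0.05 there were 2 after X-rays and 3 after protons in BL41 and 0 in J3D. LINC00467 had 0.30 ± 0.10 after X-rays (limma adjusted p = 0.120) and DLEU2 −0.25 ± 0.091 after protons (limma adjusted p = 0.119). Tug1 had 0.17 ± 0.23 and 0.39 ± 0.23 (limma adjusted p = 1.00 and 0.311), and 0.36 and 0.13 without number 1. Leaving out single libraries gave Tug1 0.0083 to 0.437 and 0.213 to 0.508. Medians in BL41 were −0.08 and −0.13.

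Of the 14 B-cell markers in BL41, VPREB1, a surrogate light chain gene, fell after protons (−0.83 ± 0.18, limma adjusted p = 0.0339, 0.157 with the block). The list's medians were 0.13 after X-rays and 0.12 after protons, near those of all genes. Of 24 markers of T, NK, myeloid, stromal and erythroid cells, 6 had a row in each line. After X-rays 0 of 14 B-cell markers and 1 of these 6 passed in BL41, where 5.35% of all genes did. After protons 1 of 14 and 1 of 6 passed, where 6.82% of all genes did. In BL41 the macrophage receptor CD163 rose after X-rays (0.64 ± 0.15, limma adjusted p = 0.0456) and the lymphocyte kinase LCK fell after protons (−0.59 ± 0.13, limma adjusted p = 0.0363). With the block these adjusted p were 0.139 and 0.163, and 8 of the 9 libraries left out in turn ended each call (5 of 9 for VPREB1). CD163 did not pass on the trimmed-mean scale either (0.53). In J3D, 0 of 6 passed in limma (1 after X-rays and 0 after protons at an unadjusted p under 0.05), and Cd22 had −0.14 ± 0.077 and −0.13 ± 0.077. The centred values hold no level, so whether a marker is near 0 cannot be read, and the part of these markers in the host genes' values was not tested.

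Some host rows may hold reads of a neighbour, since no source used here says whether reads were counted by strand. GAS5 overlaps ZBTB37, SNHG12 overlaps TRNAU1AP and ZFAS1 overlaps ZNFX1, each on the opposite strand. After protons these neighbours had 0.28 ± 0.18, −0.09 ± 0.075 and 0.27 ± 0.16 (log2 ± SE), and after X-rays 0.11 ± 0.18, −0.16 ± 0.075 and 0.17 ± 0.16, with limma adjusted p from 0.240 to 0.760. SNHG6 also overlaps MCMDC2, which has no row. SNHG1 and SNHG5 overlap no protein-coding gene in the annotation.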

How the data were processed

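RNA sequencing of 9 BL41 and 9 J3D libraries was used, 3 per group. The submitters' processing notes name TopHat2, hg19 and mm10. The counting tool, annotation, strandedness and normalisation are not given in the sources used. For each line the authors deposited a table of log2 values (no source names the base, which was read as log2), which the values show to be centred within each title number on 4 libraries, 3 of them analysed here. Depth is unknown. The authors' mean columns were not used.

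Each table was fitted whole with limma 3.58.1 (R 4.3.3, statmod 1.5.0) on its 9 libraries, a mean per group, trend and robust moderation, and Benjamini-Hochberg adjustment over all rows, threshold 0.05, without filter or pseudocount. The number in the titles was left out of the model; with a mean per number already removed by centring, it counts 6 residual degrees of freedom against 4 with a replicate block and is liberal, so blocked p-values stand beside calls. Whether numbers pair samples could not be read from centred values. The scripts were tested on simulated data. Tables and plots used Python 3.11.15, numpy 2.4.6, pandas 2.3.3 and matplotlib 3.10.9.

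Members and the 10 companion lists were chosen with earlier results of these data known. Named from each list, line and beam contrast were up to 3 genes past the threshold with the smallest p, otherwise the 1 gene with the smallest p, of which 1 is not reported here; further members of the other snoRNA hosts, and the overlapping neighbours, were named after their values were seen. SNHG17 and SNHG20 were matched by gene ID. Sequences and snoRNA positions are from RefSeq (GRCh38.p14), and exons and overlaps from GENCODE. Alternatives were the block, trimmed-mean shift (10% at each end), quantile normalisation, plain moderation, only the 6 libraries compared, a filter on tied lowest values, each library left out, and, added after seeing the data, leaving out number 1.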

Additional observations from a re-analysis of the deposited data

How the results depend on the processing

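The 21 member fold changes gave 357 values under the alternatives, of which 338 kept their sign, 19 turned it and 0 passed the threshold. Many of the kept signs could not have turned. The block, plain moderation, only the 6 libraries compared and the filter on tied values alter the p but not the fold change. The same holds for leaving out a library of the group outside the comparison. The block with trimmed means repeats the fold changes of trimmed means alone. The lowest limma adjusted p was 0.0926, for GAS5 in BL41 after protons with quantile normalisation. After X-rays in BL41, GAS5 was −0.033 with trimmed means, with or without the block, and −0.019 with quantile normalisation, and SNHG6 −0.066 and −0.078. Protons against X-rays in BL41 gave −0.0053 for SNHG1 with quantile normalisation and −0.067 for SNHG12 without number 1. Leaving out single libraries gave, after X-rays in BL41, −0.109 to 0.0637 for ZFAS1, −0.103 to 0.0263 for SNHG5 and −0.0937 to 0.127 for SNHG6. It gave −0.0868 to 0.0171 for SNHG5 and −0.0396 to 0.109 for SNHG1 between the beams in BL41, and −0.0245 to 0.188 for J3D Gas5 after X-rays. The other BL41 members kept their sign, after X-rays at 0.0075 to 0.216 for SNHG12, −0.159 to −0.011 for SNHG1 and 0.045 to 0.106 for GAS5. After protons they gave 0.149 to 0.360 for SNHG12, −0.200 to −0.028 for ZFAS1, −0.160 to −0.099 for GAS5, −0.157 to −0.043 for SNHG6, −0.137 to −0.022 for SNHG5 and −0.106 to −0.0033 for SNHG1. Between the beams they gave 0.0187 to 0.272 for SNHG12, −0.155 to −0.0586 for ZFAS1, −0.231 to −0.011 for SNHG6 and −0.229 to −0.191 for GAS5, and in J3D Gas5 gave −0.373 to −0.160 after protons and −0.457 to −0.280 between the beams. The cause was not tested.

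The counts of all BL41 genes called, 806 after X-rays and 1027 after protons, fell to 309 and 343 with trimmed means and to 129 and 533 with quantile normalisation. The share of calls that were higher went from 90.3% to 60.5% and 57.4% after X-rays, and from 86.8% to 46.6% and 45.0% after protons. Both counts were 0 with the replicate block, with the block and trimmed means together, with only the 6 libraries compared, and without number 1. Leaving out single libraries gave 0 to 808 after X-rays, with 0 without X-ray 1, and 0 to 710 after protons, with 0 without proton 3. These counts moved by over 1.5 times without each library except sham 1 after X-rays and except X-ray 3 after protons. Between the beams in BL41 the count was 1 with quantile normalisation and 0 to 1 with single libraries left out, and in J3D 0 to 1 after protons and between the beams.

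The replicate block changed no member's call, and with it the lowest adjusted p of a member was 0.403. Deviations of same-numbered libraries had r from −0.73 to 0.31, which the centring biases, so the pairing could not be judged. Depth is unknown, and a p that misses the threshold does not show that a member did not change.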
